A study of Mus musculus with 36 samples.

Results

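The 44 genes described here are the cell proliferation genes, a list of genes that dividing cells use in S phase and mitosis. They were taken by symbol and matched to the Ensembl identifiers of the count tables, and all 44 were found among 78239 gene identifiers. The rule itself reads symbols and no measured value, and the list was drawn up with earlier results of these data known. RNA had been sequenced from heart, kidney and liver of wild-type (WT) male mice of the inbred substrain C57BL/6NCrl, killed when 8, 10 or 12 weeks old, with 4 animals for each of the 9 combinations of tissue and age and 36 libraries in all. The mice had been bought young from a breeder and received no treatment that separates the groups. Each library was made from polyadenylated RNA of a homogenised piece of whole organ, so a level is a mean over all cell types, and fewer cells of a type and less RNA per cell cannot be told apart. The comparisons by age ask whether the division programme still changes at the end of postnatal growth, and those between tissues ask how far the organs differ in it.

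A cell that commits to division first loads the MCM helicase onto its DNA, raises its supply of nucleotides and copies the genome. It then builds a spindle, attaches the chromosomes to it through kinetochores and separates them under control of the cyclin-dependent kinase Cdk1, the aurora kinases and the anaphase-promoting complex. Most of these transcripts are scarce in cells that have left the cycle. In adult mice, heart muscle cells, hepatocytes and tubule cells seldom divide, and blood, endothelial and connective tissue cells divide in all organs.

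Many promoters of such genes carry sites for E2F proteins, or a CHR element with CCAAT boxes. The CHR element is used by the DREAM and MuvB complexes. Windows from 250 bases before to 50 bases after the annotated start were searched on both strands for E2F motifs (TTTCCCGC, TTTGGCGC, TTTCGCGC or TTTGCCGC), for CHR (TTTGAA) and for CCAAT. Of the 44 windows, 6 held an E2F motif (13.6%, against 2.82% of the windows of 21723 protein-coding genes), 17 held the CHR letters (38.6% against 17.1%) and 27 held CCAAT (61.4% against 40.0%). *Cdk1* alone held all 3 motifs, and *Cdc6*, *Mcm3*, *Mcm4*, *Mcm5* and *Mcm6* were the others with an E2F motif. The windows of 4 members are printed, *Cenpf* and *Ccnb1*, which were called in 4 comparisons, and *Tyms* and *Mcm2*, which had the smallest p among the many called in 3. They run 5′ to 3′ in the direction of the gene, up to 30 bases after the start (GRCm39, minus strand in each case: *Cenpf* at chr1:189420283-189420562, *Ccnb1* at chr13:100923087-100923366, *Tyms* at chr5:30278598-30278877 and *Mcm2* at chr6:88875733-88876012). Capitals mark the motifs, none of which overlap.
Cenpf: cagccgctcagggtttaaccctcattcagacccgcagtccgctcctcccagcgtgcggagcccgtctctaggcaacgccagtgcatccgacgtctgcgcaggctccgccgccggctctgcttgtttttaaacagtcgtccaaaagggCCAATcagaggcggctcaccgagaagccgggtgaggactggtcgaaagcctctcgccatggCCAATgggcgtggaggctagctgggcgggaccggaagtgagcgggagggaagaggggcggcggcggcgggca
Ccnb1: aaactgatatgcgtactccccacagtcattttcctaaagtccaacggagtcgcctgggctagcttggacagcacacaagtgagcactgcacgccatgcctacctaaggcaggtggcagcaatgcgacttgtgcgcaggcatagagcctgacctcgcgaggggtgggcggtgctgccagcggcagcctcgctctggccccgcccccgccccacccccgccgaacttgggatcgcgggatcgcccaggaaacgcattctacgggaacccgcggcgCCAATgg
Tyms: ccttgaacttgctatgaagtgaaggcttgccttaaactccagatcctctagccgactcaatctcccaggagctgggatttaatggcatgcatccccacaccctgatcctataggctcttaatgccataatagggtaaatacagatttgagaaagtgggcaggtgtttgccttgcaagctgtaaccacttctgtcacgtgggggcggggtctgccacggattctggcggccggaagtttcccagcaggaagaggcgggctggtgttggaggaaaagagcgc
Mcm2: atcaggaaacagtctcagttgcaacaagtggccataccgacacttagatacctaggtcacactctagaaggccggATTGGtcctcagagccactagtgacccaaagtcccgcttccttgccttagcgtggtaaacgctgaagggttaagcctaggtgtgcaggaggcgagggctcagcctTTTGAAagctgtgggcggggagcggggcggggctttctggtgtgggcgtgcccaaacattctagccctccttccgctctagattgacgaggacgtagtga
The window of *Cenpf* held 2 CCAAT boxes, at -103 and -42 from the start, and the CHR letters at +32, just past the printed stretch. The window of *Ccnb1* held a CCAAT box at +24. The window of *Mcm2* held CCAAT on the opposite strand at -175 and the CHR letters at -70, and that of *Tyms* held none of these letters.

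Levels are given as CPM, the read pairs of a gene relative to all counted pairs of its library, scaled with TMM factors over all 36 libraries, at 21031599 to 33637390 counted pairs per library. Most members were close to the floor of what these libraries resolve. Their median level was 1.02 CPM in heart, 1.18 CPM in kidney and 0.648 CPM in liver, and in liver the median member had a mean of only 13.5 pairs per library. Mean levels under 1 CPM were found for 22 members in heart, 15 in kidney and 26 in liver. No member was at 0 in every library of a tissue. The filter on low counts, a mean of at least 10 in at least 1 age group, kept 38 members in heart, 43 in kidney and 32 in liver. *Ttk*, a spindle checkpoint kinase, was left out in every tissue, *Plk1*, *Bub1*, *Melk* and *Kif2c* were left out in heart and liver, *Mybl2* in heart, and *Cdc6*, *Pbk*, *Aurkb*, *Cenpe*, *Cenpf*, *Ndc80* and *Nuf2* in liver. The 3 members with the highest level per length were genes of DNA replication or nucleotide supply in each organ. Per kilobase of exon, *Pcna*, the sliding clamp of the polymerases, had the highest level of all members in each tissue, with 8.96 ± 1.34 CPM per kilobase in heart, 6.70 ± 0.760 in kidney and 9.84 ± 0.971 in liver (mean ± SD, n = 12). It was followed by the helicase subunits *Mcm4* (1.80 ± 0.215) and *Mcm7* (1.64 ± 0.195) in heart and by *Mcm6* (3.82 ± 0.767) and *Mcm7* (2.67 ± 0.215) in kidney. In liver *Rrm2*, the regulated subunit of ribonucleotide reductase, was second (4.195 ± 1.71), followed by *Mcm7* (2.37 ± 0.373). The median gene that passed the filter had 1.94, 1.52 and 2.21 CPM per kilobase in heart, kidney and liver, and the median member had 0.205, 0.242 and 0.164.

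**Figure D1:**
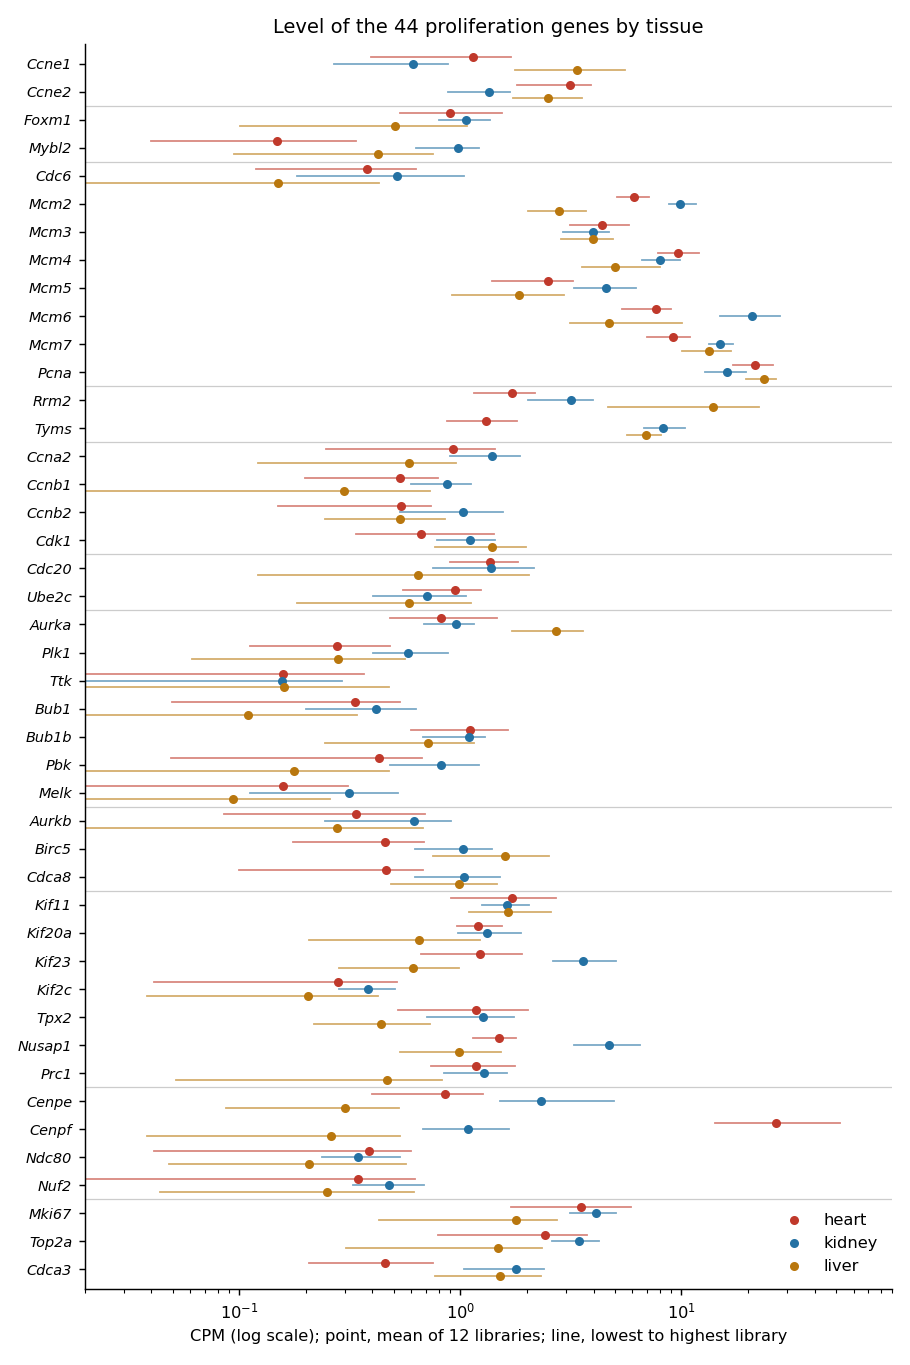
Level of each of the 44 members in heart, kidney and liver, in CPM on a log scale, with members ordered by role and grey lines between roles. Points are means of 12 libraries and lines run from the lowest to the highest library, and lines that reach the left edge belong to members with a library at 0. *Cenpf* in heart (mean 26.7 CPM) and *Rrm2* in liver (13.9 CPM) stand far to the right of the same gene in the other organs.

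Most members had their highest mean in kidney and their lowest in liver. For 29 of the 44 members the mean over the 12 libraries was highest in kidney, for 8 in heart and for 7 in liver, and it was lowest in liver for 28, in heart for 10 and in kidney for 6. The commonest order was kidney, heart, liver, which 23 members showed, among them *Mki67*, the protein behind the Ki-67 stain, and *Top2a*, which untangles replicated DNA. Both steps of that order passed the test for 11 of the 23. Such orders were not counted over all genes, of which more were also called higher in kidney than lower, against heart and against liver. Tests between tissues used edgeR's quasi-likelihood F test on all 36 libraries with an adjusted p under 0.05, and 43 members entered. The libraries were taken as independent, although organs of the same age may come from the same mice.

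Against heart, 22 members were higher in kidney and 6 were higher in heart, while 47.1% and 39.0% of the 19716 genes tested were called in the same directions. The median difference of the members was 0.53 on the log2 scale, and that of all genes was 0.15. Against heart, 11 members were higher in liver and 26 were higher in heart (background 42.2% and 42.0%), with a median member difference of -0.68. Against kidney, 6 members were higher in liver and 31 were higher in kidney (background 37.0% and 46.0%), with a median of -1.20, where all genes had -0.16. The members called higher in kidney than in liver, 72.1% of the 43, were thus a larger share than the background, and those called higher in kidney than in heart, 51.2%, were close to it. With DESeq2 28, 36 and 37 members were called in these 3 comparisons, and with limma-voom 30, 35 and 37.

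The roles did not follow a common order. Of the 8 licensing and clamp genes, *Mcm2*, *Mcm5*, *Mcm6* and *Mcm7* were higher in kidney than in heart, and *Mcm4* and *Pcna* were lower. *Mcm6* had 20.8 ± 4.17 CPM in kidney, 7.64 ± 1.04 in heart and 4.71 ± 1.80 in liver (SD, n = 12), which was 2.703-fold higher in kidney than in heart (adjusted p = 1.03e-13, edgeR) and 4.42-fold higher in kidney than in liver (adjusted p = 8.19e-18). *Mcm3* had 4.39, 3.99 and 4.00 CPM in heart, kidney and liver, and neither step of its order passed the test. The helicase is a ring of 6 different subunits, and the ratios between its transcripts were not the same in the 3 organs.

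The nucleotide genes were highest outside the heart. *Tyms*, thymidylate synthase, had 1.31 ± 0.278 CPM in heart, 8.27 ± 0.865 in kidney and 6.92 ± 0.794 in liver, 6.27-fold higher in kidney and 5.26-fold higher in liver than in heart (adjusted p = 7.73e-24 and 2.20e-22, edgeR). *Rrm2* had 1.71 ± 0.314 CPM in heart, 3.18 ± 0.609 in kidney and 13.9 ± 5.69 in liver, 8.03-fold higher in liver than in heart (adjusted p = 2.00e-16). The liver libraries differed from each other in *Rrm2*, from 4.67 to 22.3 CPM.

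For 4 members the mean was highest in liver and lowest in heart. These were *Rrm2*, *Cdk1*, the master kinase of mitosis, *Aurka*, the kinase of spindle poles, and *Birc5*, survivin of the chromosomal passenger complex. *Aurka* had 2.69 ± 0.521 CPM in liver, against 0.813 ± 0.300 in heart and 0.955 ± 0.153 in kidney, 3.31-fold and 2.81-fold higher (adjusted p = 1.72e-12 and 1.89e-11, edgeR), and its difference between kidney and heart did not pass (adjusted p = 0.159). *Birc5* had 1.59 ± 0.490 CPM in liver and 0.455 ± 0.179 in heart, a 3.47-fold difference (adjusted p = 7.02e-10). *Cdk1* was 2.12-fold higher in liver than in heart (adjusted p = 2.61e-06), and its difference from kidney was 0.33 on the log2 scale with a 95% interval from -0.02 to 0.67. Of the cyclins that bind Cdk1, *Ccna2* and *Ccnb1* went the other way and were higher in heart than in liver. *Ccnb2* had 0.539 CPM in heart and 0.535 CPM in liver, and this difference did not pass (adjusted p = 0.990, edgeR). *Ccne1*, a cyclin of the entry into S phase, had 3.39 ± 1.21 CPM in liver, 1.15 ± 0.360 in heart and 0.613 ± 0.175 in kidney, and both steps passed the test (adjusted p = 1.37e-09 and 5.00e-05).

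Among kidney genes, *Kif23*, a kinesin of the midbody, had 3.60 ± 0.713 CPM in kidney, 2.92-fold higher than in heart and 5.98-fold higher than in liver (adjusted p = 3.40e-12 and 1.01e-16, edgeR). *Nusap1*, which bundles spindle microtubules, was 3.14-fold and 4.81-fold higher (adjusted p = 4.32e-14 and 5.70e-17). *Mybl2*, a transcription factor of the division programme, was 6.48-fold higher in kidney than in heart (adjusted p = 1.11e-12). *Mki67* had 4.11 ± 0.616 CPM in kidney and 3.52 ± 1.33 in heart, and this difference did not pass (log2 0.25, 95% interval -0.06 to 0.56, adjusted p = 0.125). In liver it had 1.79 ± 0.655 CPM, 2.36-fold lower than in kidney (adjusted p = 2.58e-08).

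The other mitotic roles were counted in the same way. *Cdk1* and its cyclins *Ccna2*, *Ccnb1* and *Ccnb2* were all higher in kidney than in heart. The chromosomal passenger genes *Aurkb*, *Birc5* and *Cdca8*, which correct faulty attachments of chromosomes, were also all higher in kidney than in heart, and *Birc5* was higher and *Aurkb* lower in liver than in kidney. Of 6 mitotic kinases and checkpoint genes tested, *Plk1*, *Pbk* and *Melk* were higher in kidney than in heart, 5 were lower in liver than in kidney, and *Aurka* was higher there. Of the 7 genes of kinesins and spindle assembly, 6 were lower in liver than in kidney and *Kif11*, the motor that pushes the spindle poles apart, had 1.71, 1.62 and 1.65 CPM in heart, kidney and liver, with no step called. *Ube2c*, the ubiquitin-conjugating enzyme of the anaphase-promoting complex, had 0.943 CPM in heart and 0.706 CPM in kidney, a call at the threshold (adjusted p = 0.0495) that was lost with RLE factors, with no count filter, with filterByExpr and in 18 of the 36 fits that left out a library. *Cdca3*, a trigger of mitotic entry, had 0.458 CPM in heart, 1.78 CPM in kidney and 1.503 CPM in liver. *Foxm1*, a transcription factor of mitotic genes, had 0.901, 1.06 and 0.506 CPM in heart, kidney and liver, and was lower in liver than in either other organ.

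*Cenpf* had the largest fold differences of any member between heart and the other organs. It encodes a large microtubule-binding protein of the nuclear envelope and the kinetochore. Its mean was 26.7 ± 11.5 CPM in heart, 1.08 ± 0.292 in kidney and 0.261 ± 0.153 in liver, 23.3-fold higher in heart than in kidney (adjusted p = 2.06e-24, edgeR) and 103-fold higher than in liver (adjusted p = 6.10e-26). The lowest heart library had 14.1 CPM and the highest kidney library 1.66 CPM. Per kilobase of exon *Cenpf* was the fourth of the 44 members in heart, the 42nd in kidney and the last in liver. No other kinetochore gene was higher in heart than in kidney by the test. *Cenpe*, the kinetochore motor, had 0.853 CPM in heart and 2.32 CPM in kidney, and *Ndc80* and *Nuf2*, which hold the microtubule end, had 0.384 and 0.343 CPM in heart and 0.344 and 0.474 CPM in kidney. The annotation places 2 genes without a given name, *Gm37239* and *Gm70084*, on the other strand of the *Cenpf* locus (chromosome 1, 189372752 to 189420315, GRCm39). The libraries did not keep strand, so any pairs on exons that *Cenpf* shares with them were set aside as ambiguous and are not in its count.

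The labelled organs had their own defining transcripts. The summed level of 6 cardiomyocyte genes was 47656 to 63820 CPM over the heart libraries and at most 3.64 CPM elsewhere, that of 6 tubule and glomerulus genes was 7497 to 8794 CPM in kidney and at most 2.99 CPM elsewhere, and that of 6 hepatocyte genes was 91689 to 160721 CPM in liver, 699 to 829 CPM in kidney and at most 23.6 CPM in heart. Marker genes of other cell types also had unequal summed levels. The erythroid precursor list includes the globin genes *Hba-a1* and *Hbb-bs*, and *Hbb-bs* had no counted pair in any group. *Igkc*, of the B and plasma cell list, had none outside kidney at 12 weeks. Erythroid precursor genes summed to 238 to 927 CPM in heart, 55.1 to 125 in kidney and 179 to 298 in liver, endothelial genes to 504 to 643, 217 to 271 and 57.1 to 157, fibroblast genes to 728 to 1080, 81.8 to 243 and 145 to 323, and macrophage genes to 122 to 189, 73.2 to 105 and 98.3 to 328. B and plasma cell genes summed to 4.30 to 8.55 CPM in heart, 3.12 to 19.2 in kidney and 3.97 to 22.3 in liver, and T cell genes to 0.914 to 2.22, 1.63 to 4.34 and 1.88 to 4.42. Neutrophil genes reached at most 13.0, 1.05 and 16.0 CPM, and myeloid precursor genes at most 0.297, 0.118 and 5.08 CPM. The part of these cell types in the differences between organs was not tested.

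With age few of the proliferation genes passed the test. Of the 9 comparisons of ages within a tissue, 12 against 8 weeks in heart called 2 members, both higher at 12 weeks, and the other 8 called none. In heart 4.56% of the 15137 genes tested were called at 12 against 8 weeks, and 5.26% of the 38 members, a share close to the background. The counts of 0 stood beside a background of 1.06% at 10 against 8 weeks and 0.0396% at 12 against 10 weeks in heart, of 0.0567%, 0.929% and 0.482% of 17649 genes at 12 against 8, 10 against 8 and 12 against 10 weeks in kidney, and of 0.239%, 0.0204% and 0.0545% of 14672 genes in liver in the same order. With few genes called at all, counts of 0 members say little. In these 8 comparisons between 1 and 5 members had an unadjusted p under 0.05. Those were 2.63 to 15.6% of the members tested, against 11.7 to 16.5% of all genes tested. In the same comparisons limma-voom called none, and DESeq2 called *Mcm6* at 10 against 8 weeks and *Pcna* at 12 against 10 weeks in kidney and no other member.

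**Figure D2:**
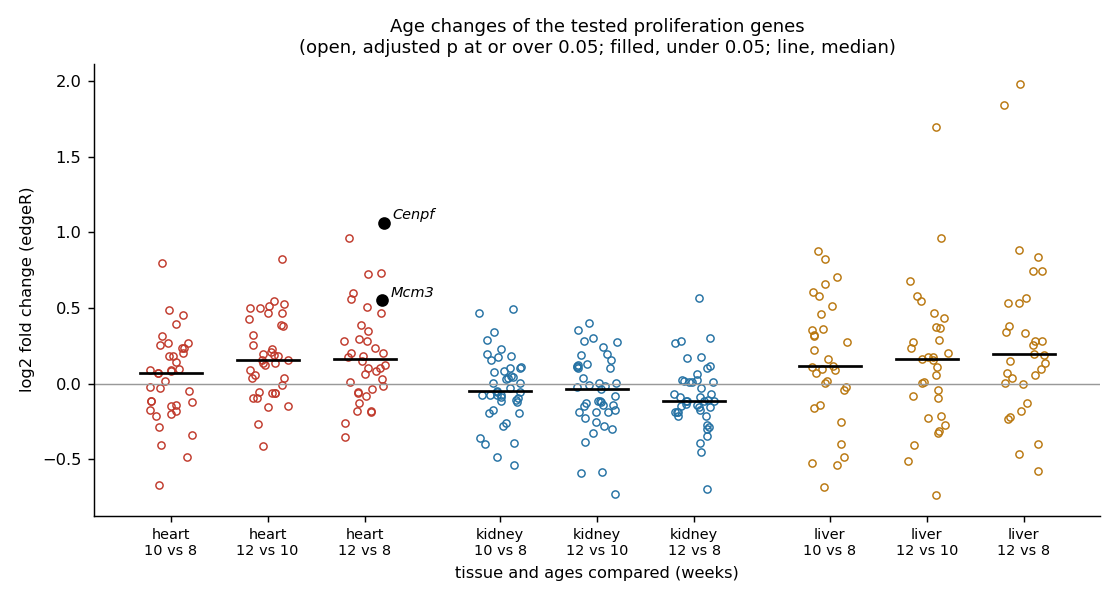
Log2 fold change of every tested member in each of the 9 comparisons of ages (38 members in heart, 43 in kidney and 32 in liver). Lines are medians, and filled points have an adjusted p under 0.05. *Cenpf* and *Mcm3* at 12 against 8 weeks in heart are the only filled points, and the medians lie above 0 in heart and liver and below 0 in kidney, with signs that turn without single libraries for heart at 10 against 8 weeks and for kidney at 10 against 8 and 12 against 10 weeks.

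*Cenpf* rose in the heart. Its level was 24.0, 15.7, 21.0 and 14.1 CPM in the 4 libraries at 8 weeks, 14.6, 19.9, 28.7 and 24.8 CPM at 10 weeks and 52.4, 38.8, 37.6 and 28.4 CPM at 12 weeks. Every 12-week library was above every 8-week library, and the 10-week libraries overlapped both. The change from 8 to 12 weeks was 2.09-fold (log2 1.07 ± 0.21 SE, adjusted p = 0.0118, edgeR), that from 10 to 12 weeks was 1.77-fold (log2 0.83 ± 0.20, adjusted p = 0.227) and that from 8 to 10 weeks did not pass. The change from 8 to 12 weeks passed without any 1 of the 12 heart libraries (adjusted p from 0.00538 to 0.0429) and with DESeq2 and limma-voom. In kidney the means were 1.14, 1.09 and 1.01 CPM at 8, 10 and 12 weeks, and in liver 0.177, 0.216 and 0.389 CPM. The fold change in kidney was lower than that in heart by a factor of 2.41, which did not pass with edgeR (adjusted p = 0.161) and did with DESeq2.

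*Mcm3*, a subunit of the helicase, was the other member called. It had 3.798, 3.71, 3.27 and 3.14 CPM in heart at 8 weeks, 4.59, 3.43, 4.98 and 5.27 CPM at 10 weeks and 4.82, 5.35, 4.58 and 5.76 CPM at 12 weeks. The groups at 8 and 12 weeks did not overlap, and the change was 1.47-fold (log2 0.55 ± 0.15 SE, adjusted p = 0.0432, edgeR). The call was lost in 8 of the 12 fits that left out a library, those without the 8-week libraries 2, 3 or 4, the 10-week library 1 or any 12-week library, with an adjusted p of up to 0.117. The other 5 helicase genes were not called, and *Mcm4* and *Mcm7* were among the most abundant. *Mcm4* had 10.6, 9.11, 7.79 and 9.37 CPM at 8 weeks and 10.3, 10.7, 12.1 and 9.74 CPM at 12 weeks (log2 0.21, 95% interval -0.02 to 0.44). *Mcm7* had 10.2, 8.96, 8.03 and 10.9 CPM at 8 weeks and 9.54, 8.91, 9.44 and 10.6 CPM at 12 weeks (log2 0.010, interval -0.24 to 0.26), and *Pcna* had 25.9, 19.3, 17.9 and 18.6 CPM at 8 weeks and 17.9, 21.98, 23.2 and 17.01 CPM at 12 weeks (log2 -0.03, interval -0.29 to 0.22). For these 3 genes the groups overlapped.

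*Mki67* in heart had 3.12, 3.16, 3.03 and 1.69 CPM at 8 weeks, 3.40, 2.29, 5.06 and 2.31 CPM at 10 weeks and 3.98, 5.94, 5.41 and 2.82 CPM at 12 weeks. The lowest 12-week library lay within the range of the 8-week libraries, and the log2 change of 0.72 ± 0.27 SE did not pass (adjusted p = 0.122, edgeR). It passed without the 12-week library 4 (adjusted p = 0.0412) and with no filter on low counts. *Top2a* had 2.86, 2.46, 2.21 and 1.65 CPM at 8 weeks, 1.68, 0.796, 3.74 and 1.79 CPM at 10 weeks and 2.704, 2.86, 3.41 and 2.74 CPM at 12 weeks, with a log2 change of 0.35 (95% interval -0.28 to 0.98). At 10 weeks library 3 had the highest *Mki67* and *Top2a* of its group. *Cdk1* had an unadjusted p under 0.05, as did 23.4% of all genes tested, with means of 0.460 CPM at 8 weeks and 0.898 CPM at 12 weeks (adjusted p = 0.142, edgeR).

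**Figure D3:**
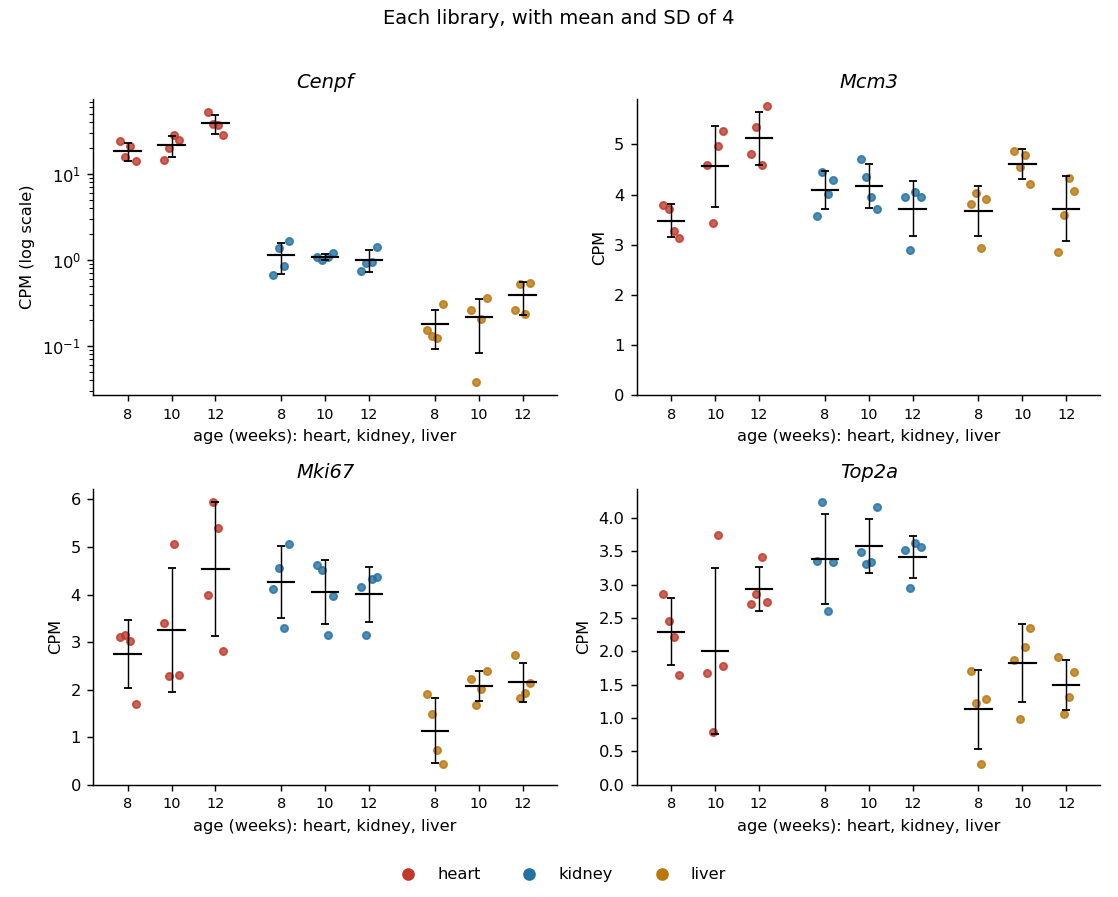
Level of *Cenpf*, *Mcm3*, *Mki67* and *Top2a* in every library (CPM, log scale for *Cenpf* only) by tissue and age. Points are libraries, and bars give the mean and SD of 4. *Cenpf* lies at 14.1 to 52.4 CPM in heart and at 1.66 CPM or less elsewhere.

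As a group, 27 of the 38 tested members had a higher and 11 a lower fitted value at 12 than at 8 weeks in heart, with a median log2 change of 0.16, against 0.00090 over all genes. The 95% interval of the change lay within 1 log2 unit either way for 23 of the 38. Summed over 29 mitosis genes without *Cenpf*, which was set apart after its values were seen, the level was 24.5, 28.0, 23.1 and 20.1 CPM at 8 weeks, 24.2, 15.7, 34.9 and 21.6 CPM at 10 weeks and 24.5, 30.3, 34.5 and 27.1 CPM at 12 weeks. Those ranges overlapped. The sum of 10 replication genes had means of 61.4, 66.6 and 64.9 CPM. Of 11 lists of cell type markers, fibroblast genes did not overlap between 8 weeks (728 to 768 CPM) and 12 weeks (783 to 911 CPM) in heart, and the cardiomyocyte sum was 51101 to 53281 CPM and 51619 to 63820 CPM. The share of read pairs that were counted in heart was 70.2 to 71.7% at 8 weeks and 71.8 to 73.2% at 12 weeks, without overlap. The part of these sums and of this share in the heart changes was not tested.

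Other cell cycle genes were examined beside the members, as a list of 93 genes that were not members. In heart at 12 against 8 weeks, 2 of the 77 tested were higher and 2 were lower, while 4.56% of all genes tested were called in either direction. *Ccnd1*, cyclin D1, rose from 24.6 ± 2.58 to 35.6 ± 5.56 CPM (SD, n = 4, log2 0.53, adjusted p = 0.0353, edgeR), and *Ncapg2*, a condensin II subunit, rose from 2.61 ± 0.319 to 4.06 ± 0.460 CPM (log2 0.64, adjusted p = 0.0364). *Cdkn1b*, the inhibitor p27, fell from 55.2 ± 4.26 to 43.0 ± 3.56 CPM (log2 -0.37, adjusted p = 0.0270), and *Pold1*, the catalytic subunit of DNA polymerase delta, fell from 15.3 ± 1.17 to 12.0 ± 1.39 CPM (log2 -0.36, adjusted p = 0.0452). *Cdkn1a*, the inhibitor p21, had means of 38.5, 21.7 and 21.4 CPM at 8, 10 and 12 weeks, and the change from 8 to 12 weeks did not pass (log2 -0.85, adjusted p = 0.0736).

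In the kidney no member was called by age. At 12 against 8 weeks 15 of 43 tested members had a higher and 28 a lower fitted value, with a median log2 change of -0.11. The intervals were tightest here, since that of 40 of the 43 members lay within 1 log2 unit either way. *Mki67* had 4.12, 4.57, 3.31 and 5.07 CPM at 8 weeks, 4.61, 4.51, 3.14 and 3.98 CPM at 10 weeks and 4.16, 3.15, 4.32 and 4.38 CPM at 12 weeks (log2 -0.09, 95% interval -0.43 to 0.26). *Top2a* had 3.35, 4.24, 2.60 and 3.34 CPM at 8 weeks, 3.48, 3.303, 3.33 and 4.17 CPM at 10 weeks and 3.51, 2.95, 3.63 and 3.56 CPM at 12 weeks (log2 0.02, interval -0.29 to 0.34). For both genes the ranges of the ages overlapped.

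The kidney members with the smallest p at 12 against 8 weeks were *Bub1*, *Mybl2* and *Ccne1*. *Bub1*, a spindle checkpoint kinase, had 0.575, 0.627, 0.472 and 0.312 CPM at 8 weeks and 0.201, 0.252, 0.454 and 0.316 CPM at 12 weeks, with no more than 21 pairs in any of these libraries (log2 -0.70 ± 0.30 SE, adjusted p = 0.389, edgeR). *Mybl2* had 1.22, 1.04, 1.16 and 1.11 CPM at 8 weeks and 0.939, 0.681, 0.847 and 0.817 CPM at 12 weeks. Its ranges did not overlap, and the change did not pass (log2 -0.45 ± 0.20, adjusted p = 0.412). *Ccne1* had 0.710, 0.269, 0.449 and 0.577 CPM at 8 weeks and 0.783, 0.882, 0.756 and 0.527 CPM at 12 weeks (log2 0.57 ± 0.29, adjusted p = 0.467).

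Of the abundant replication genes of the kidney, *Mcm6* and *Pcna* had their highest mean at 10 weeks. The means of *Mcm7* at 10 and 12 weeks were nearly equal, at 15.16 and 15.20 CPM. *Mcm6* had 18.05, 18.2, 16.4 and 18.9 CPM at 8 weeks, 27.9, 19.2, 26.8 and 23.5 CPM at 10 weeks and 23.6, 23.6, 18.1 and 14.9 CPM at 12 weeks, and its change from 8 to 10 weeks did not pass with edgeR (log2 0.47 ± 0.14 SE, adjusted p = 0.119) and passed with DESeq2. All 10-week libraries were above the 8-week libraries. *Pcna* had 14.9, 16.3, 16.6 and 15.9 CPM at 8 weeks, 18.8, 19.5, 16.6 and 16.4 CPM at 10 weeks and 14.4, 12.8, 15.4 and 15.2 CPM at 12 weeks. *Mcm7* had 13.3, 16.5, 14.7 and 13.7 CPM at 8 weeks and 15.9, 17.1, 13.6 and 14.2 CPM at 12 weeks (log2 0.07, 95% interval -0.11 to 0.24). At 10 weeks it had 14.5, 16.0, 15.4 and 14.8 CPM. The replication sum was 81.1, 95.1, 86.0 and 87.3 CPM at 8 weeks, 107, 97.2, 96.2 and 90.8 CPM at 10 weeks and 91.0, 85.6, 84.2 and 80.4 CPM at 12 weeks. The mitosis sum without *Cenpf* had means of 42.1, 38.5 and 39.8 CPM.

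Of the other cell cycle genes in kidney, *Ccnd1* fell from 158 ± 22.5 CPM at 8 weeks to 107 ± 5.23 CPM at 10 weeks (log2 -0.54, adjusted p = 0.0418, edgeR) and had 118 ± 19.8 CPM at 12 weeks. *Cdkn2b*, the inhibitor p15, rose from 1.38 ± 0.438 to 3.86 ± 1.98 CPM at 10 weeks (log2 1.52, adjusted p = 0.0426) and fell to 1.28 ± 0.266 CPM at 12 weeks (log2 -1.62, adjusted p = 0.0459). No other gene of the 86 tested passed in a kidney comparison, *Cdkn1a* included (log2 -0.42 at 12 against 8 weeks, adjusted p = 0.590). Of all genes tested in kidney, 0.929% were called at 10 against 8 weeks and 0.482% at 12 against 10 weeks. Marker sums of B and plasma cells (3.12 to 5.08 CPM at 8 weeks, 8.33 to 19.2 CPM at 12 weeks), macrophages (73.2 to 80.9 and 83.4 to 105 CPM) and erythroid precursors (55.1 to 76.1 and 80.4 to 83.1 CPM) did not overlap between 8 and 12 weeks, and their part was not tested.

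**Figure D4:**
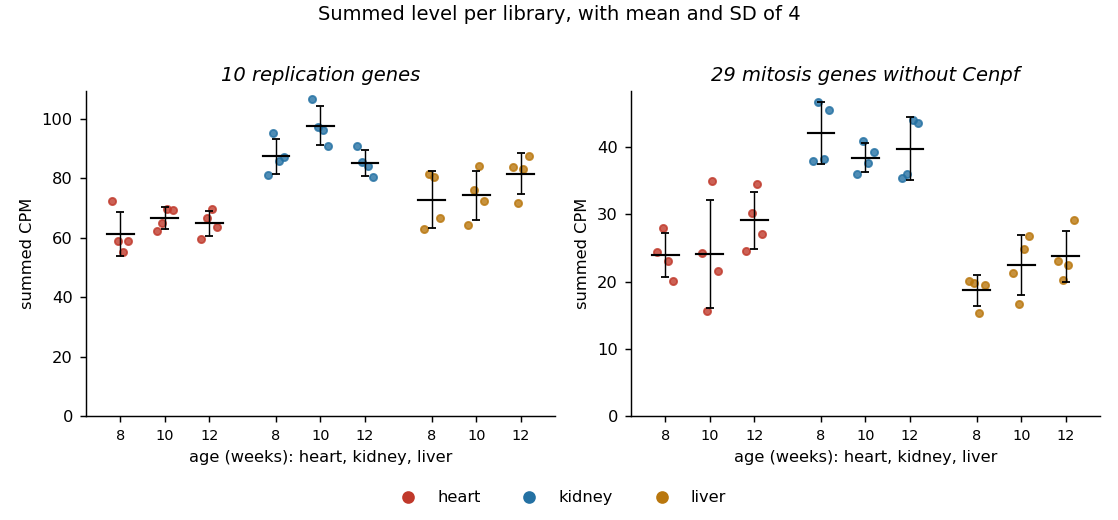
Summed CPM of 10 replication genes (left) and of 29 mitosis genes without *Cenpf* (right) in each library by tissue and age. Points are libraries, and bars give the mean and SD of 4. Kidney mitosis sums have group means of 38.5 to 42.1 CPM, those of heart 23.9 to 29.1 CPM and those of liver 18.7 to 23.8 CPM. The libraries of 8 and 12 weeks overlap in every panel and tissue except for the mitosis sum in liver, where the highest 8-week library (20.2 CPM) lies just below the lowest 12-week library (20.3 CPM).

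In the liver no member was called by age, and the libraries gave the least precision. The common coefficient of variation between liver libraries was 0.206, against 0.118 in heart and 0.113 in kidney, and the interval of the change from 8 to 12 weeks lay within 1 log2 unit for 16 of 32 members. Of the 32, 24 had a higher and 8 a lower fitted value at 12 weeks, with a median log2 change of 0.19. The filter could admit a member through 1 age alone, as it did *Ccnb1* through 12 weeks and *Mybl2* through 8 weeks. The mitosis sum without *Cenpf* was 20.2, 19.9, 15.4 and 19.5 CPM at 8 weeks, 21.4, 16.7, 24.9 and 26.8 CPM at 10 weeks and 23.0, 20.3, 22.5 and 29.2 CPM at 12 weeks. The ranges of 8 and 12 weeks lay next to each other without overlap, and the 10-week libraries overlapped both. The replication sum had means of 72.9, 74.3 and 81.6 CPM, and its ages overlapped. The share of read pairs that were counted also moved with age in liver, from 74.8 to 78.8% at 8 weeks to 68.6 to 74.4% at 10 weeks and 72.1 to 74.8% at 12 weeks, and its part was not tested.

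*Mki67* in liver had 1.91, 1.49, 0.732 and 0.428 CPM at 8 weeks, 2.23, 1.68, 2.01 and 2.39 CPM at 10 weeks and 2.73, 1.83, 1.93 and 2.13 CPM at 12 weeks. The 8-week libraries 3 and 4 were the lowest, and the log2 change of 0.88 ± 0.35 SE from 8 to 12 weeks did not pass (adjusted p = 0.272, edgeR). *Top2a* had 1.71, 1.22, 0.305 and 1.28 CPM at 8 weeks, 1.87, 0.993, 2.06 and 2.35 CPM at 10 weeks and 1.91, 1.06, 1.32 and 1.70 CPM at 12 weeks (log2 0.39, 95% interval -0.50 to 1.27). *Pcna* had 19.6, 25.6, 25.4 and 22.9 CPM at 8 weeks and 25.0, 21.0, 26.9 and 25.6 CPM at 12 weeks (log2 0.07, interval -0.17 to 0.31).

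The transcript of *Rrm2* was the most uneven of the abundant liver members, with 6.88, 19.9, 22.3 and 9.17 CPM at 8 weeks, 4.67, 14.5, 14.4 and 10.55 CPM at 10 weeks and 17.1, 11.8, 13.8 and 22.1 CPM at 12 weeks (log2 0.15, 95% interval -0.69 to 1.00). The spread within an age was larger than any shift between ages. *Mcm7* had 11.4, 12.0, 11.8 and 11.6 CPM at 8 weeks and 14.1, 15.4, 16.8 and 13.4 CPM at 12 weeks. All 12-week libraries were above the 8-week libraries, and the change did not pass (log2 0.34, interval 0.05 to 0.63, adjusted p = 0.269, edgeR). *Ccne2*, a cyclin of the entry into S phase, had 3.56, 3.37, 3.23 and 2.38 CPM at 8 weeks and 1.74, 2.40, 2.12 and 2.23 CPM at 12 weeks (log2 -0.58 ± 0.19 SE, adjusted p = 0.190).

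*Ccnb1*, cyclin B1, and *Cdc20*, the activator through which the anaphase-promoting complex removes it, had the largest log2 changes from 8 to 12 weeks among the 32 members tested in liver. *Ccnb1* had 0.251, 0.175, 0 and 0.122 CPM in liver at 8 weeks, 0.0519, 0.153, 0.206 and 0.279 CPM at 10 weeks and 0.434, 0.624, 0.565 and 0.727 CPM at 12 weeks. These were 5, 4, 0 and 2 read pairs at 8 weeks and 10, 13, 12 and 15 at 12 weeks. At 10 weeks they were 1, 4, 4 and 7. *Ccnb1* thus passed the count filter in liver only through the 12-week libraries, where it was highest. *Cdc20* had 0.402, 0.175, 0.122 and 0.489 CPM at 8 weeks, 0.519, 0.267, 0.929 and 0.517 CPM at 10 weeks and 0.434, 0.721, 1.13 and 2.04 CPM at 12 weeks. *Ccnb1* did not overlap between 8 and 12 weeks and *Cdc20* did, and neither change passed within liver (log2 1.98 ± 0.55 SE, adjusted p = 0.139, and 1.84 ± 0.56, adjusted p = 0.171, edgeR). *Cdk1*, the kinase that cyclin B1 activates, had means of 1.51, 1.37 and 1.28 CPM at 8, 10 and 12 weeks. *Nuf2*, which the filter left out in liver, had 1 read pair in each 8-week library and 11, 4, 11 and 5 at 12 weeks, and its difference in change from kidney, 2.73 on the log2 scale, did not pass (adjusted p = 0.184, edgeR).

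The change from 8 to 12 weeks was then compared between organs with an interaction term over all 36 libraries. Between liver and heart 2 of 43 members were called, or 4.65%, with a background of 4.16%, and these were *Ccnb1* (2.25 ± 0.63 on the log2 scale, adjusted p = 0.0360) and *Cdc20* (2.03 ± 0.57, adjusted p = 0.0363), both with a higher log2 change in liver. In heart *Ccnb1* had means of 0.627 and 0.515 CPM and *Cdc20* of 1.46 and 1.29 CPM at 8 and 12 weeks. DESeq2 called *Cdc20* only and limma-voom *Ccnb1* only, and the calls were lost in 9 and 10 of the 36 fits that left out a library. For *Ccnb1* these were the fits without the heart libraries 2 or 3 at 8 weeks or 1 or 2 at 12 weeks, and without the liver libraries 2, 3 or 4 at 8 weeks or 2 or 3 at 12 weeks (adjusted p up to 0.0773). For *Cdc20* they were the fits without the heart libraries 2, 3 or 4 at 8 weeks or 1, 2 or 3 at 12 weeks, and without the liver libraries 2 or 3 at 8 weeks or 3 or 4 at 12 weeks (adjusted p up to 0.0916). Between kidney and heart 0 members were called (background 0.112%), and DESeq2 called *Cenpf* and *Mcm3*. There 4 members (9.30%) had an unadjusted p under 0.05, all with a lower log2 change in kidney. Of all genes 11.1% did in either direction, and 5.73% in that direction. Between liver and kidney 0 members were called (background 0.304%), and limma-voom called *Ccnb1*. Here 6 members (14.0%) had an unadjusted p under 0.05, against 11.2% of all genes. These comparisons share libraries, so they are not independent of each other.

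**Figure D5:**
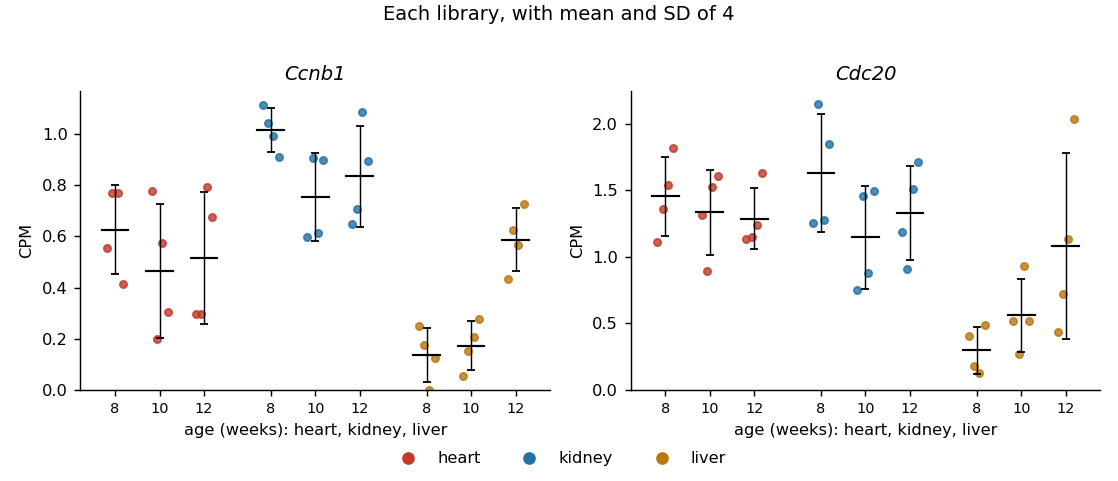
Level of *Ccnb1* and *Cdc20* in every library (CPM) by tissue and age. Points are libraries, and bars give the mean and SD of 4. In liver the 4 *Ccnb1* libraries at 12 weeks (0.434 to 0.727 CPM) lie above those at 8 weeks (0 to 0.251 CPM), and *Cdc20* overlaps.

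No other cell cycle gene of the 69 tested passed within liver at 12 against 8 weeks, and 3 had an unadjusted p under 0.05 in each direction. Of all genes tested there, 7.37% were higher and 7.77% lower at that threshold. *Ccnd1* had means of 17.2, 14.8 and 17.3 CPM at 8, 10 and 12 weeks, and *Cdkn1a* of 5.75, 5.91 and 6.15 CPM, with a library at 15.3 CPM at 12 weeks. In the comparison of liver with heart, *Anln*, anillin of the cleavage furrow, and *Ncapg2* had a lower log2 change in liver (by -1.43 and -1.03, adjusted p = 0.0351 and 0.0330, edgeR). Of all genes tested, 4.16% were called in that comparison. The means of *Anln* were 0.767 and 0.411 CPM in liver and 1.08 and 1.56 CPM in heart at 8 and 12 weeks, and those of *Ncapg2* were 2.04 and 1.56 CPM in liver and 2.61 and 4.06 CPM in heart, so the means of both went down in liver and up in heart. Marker sums of T cells (1.88 to 2.21 CPM at 8 weeks, 2.47 to 4.42 CPM at 12 weeks) and of myeloid precursors (0.525 to 3.16 and 0.0969 to 0.390 CPM) did not overlap between 8 and 12 weeks in liver, with *Mpo*, *Ctsg* and *Ms4a3* at 0 in every 12-week library. Their part in the liver values was not tested.

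Many members overlap other annotated genes. The span of another gene overlaps that of 29 of the 44 on the genome, and strand was not kept. Pairs on exons of both genes were set aside as ambiguous and are in neither count. Whether exons are shared was not examined. *Pcna*, *Tyms*, *Ccnb1* and *Ccnb2* have pseudogenes named after them, and their counts depend on how reads that match both were placed. Pairs that matched several places were not counted, and they made up 6.26 to 19.1% of pairs. The members that overlap no other annotated gene include *Mcm2* to *Mcm6*, *Birc5*, *Kif23* and *Cenpe*.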

How the data were processed

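Read pairs were counted per gene in 36 libraries, and the counts are those the authors deposited, as raw whole numbers in a column without regard to strand, which was used, and a column for each strand, which were not. To make them, the authors checked reads with FastQC 0.11.9, trimmed them with cutadapt 4.2 and aligned them with STAR 2.7.11b to GRCm39 with an Ensembl annotation. Summary rows that name no gene were left out. Between 49.8% and 50.2% of stranded counts fell on the first strand. Names came from GENCODE mouse release 39 on the same build, which matched 78168 identifiers and missed 71. Promoter windows were read from that genome.

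Genes entered a test if their mean reached 10 reads in 1 or more age groups, with 2 or more of that group's libraries not at 0. Age tests were fitted within a tissue and tissue tests over all 36 libraries, each on all genes kept, with TMM factors and edgeR 4.0.16's quasi-likelihood F test in R 4.3.3, and p-values were adjusted by Benjamini-Hochberg. A call is an adjusted p under 0.05. Printed CPM use TMM factors over all libraries, and fold changes come from the fits. Levels per kilobase divide CPM by merged exon length. The methods were tested on simulated data. Intervals are 95% confidence intervals of a fitted log2 difference, whose uncertainty comes from the spread between libraries. The SE is the absolute log2 difference divided by the square root of its F statistic.

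The members and lists were chosen with earlier results of these data known. Each sample's values are given for *Mki67* and *Top2a*, members called by age and the 3 of highest level per length in each tissue. Where fewer than 3 were called, those of the 3 members of smallest p at 12 against 8 weeks are given too. For some of these members only the libraries at 8 and 12 weeks are printed. Of other cell cycle genes, those called are named, with *Cdkn1a* and *Ccnd1*. Other genes were named after their values were seen, to illustrate the order of tissues. Alternatives were DESeq2 1.42.0, limma-voom 3.58.1, RLE factors, no filter, filterByExpr, a replicate block, a fold rule and each library left out. Python 3.11.15 with pandas 2.3.3 and matplotlib 3.10.9 made tables and figures.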

Additional observations from a re-analysis of the deposited data

Results flagged for a closer look

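The mitosis sum without *Cenpf* had a library that stood apart from the other 3 at 8 weeks in liver, with 15.4 CPM against 19.5 to 20.2 CPM. *Mki67* had such a library at 8 weeks in heart, with 1.69 CPM against 3.03 to 3.16 CPM. These were 2 of 87 groups of 4 examined, and chance flags about 1 in 20.

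The change from 8 to 12 weeks differed between liver and heart for *Ccnb1*, by 2.25 on the log2 scale, and for *Cdc20*, by 2.03, in the interaction term over all 36 libraries. Both rest on few read pairs in liver.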

How the results depend on the processing

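Depth limits most members, since the median member had a mean of 13.5 read pairs per library in liver. Of 585 comparisons of a count or median with its value under an alternative, 546 stayed within 1.5 times the count or within 1 SD, and 39 did not. At 12 against 8 weeks in heart, 1 member was called when an absolute log2 change over 1 was also asked (*Cenpf*), 1 with a replicate block, which dropped *Mcm3*, and 1 to 2 without single libraries. With no count filter 1 member was called in heart at 12 against 10 weeks (*Cenpf*), and in kidney 1 at 10 against 8 weeks (*Mcm6*) and 1 at 12 against 10 weeks (*Pcna*). DESeq2 also called 1 and 1 in these kidney comparisons, and leaving out libraries gave 0 to 1 at 12 against 10 weeks, with 1 without the 10-week library 4. For the change from 8 to 12 weeks, kidney against heart gave 2 members with DESeq2 and 1 with no count filter. Liver against heart gave 1 with DESeq2, 1 with limma-voom and 0 to 3 without single libraries. Liver against kidney gave 1 with limma-voom, 2 with no count filter and 0 to 1 without single libraries, with 1 (*Cdc20*) without liver library 4 at 8 weeks or 1 at 12 weeks.

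Without single libraries, the median log2 change of the members ranged from -0.081 to 0.17 in heart at 10 against 8 weeks and from 0.046 to 0.28 at 12 against 10, in kidney from -0.086 to 0.035 at 10 against 8 and from -0.10 to 0.013 at 12 against 10, and in liver from 0.10 to 0.34 at 12 against 8, from 0.059 to 0.27 at 10 against 8 and from 0.031 to 0.18 at 12 against 10 weeks. The sign of 5 single changes at 12 against 8 weeks, none of them called, depended on the libraries, with ranges of -0.060 to 0.083 for *Mcm7* and -0.12 to 0.10 for *Pcna* in heart, -0.20 to 0.0088 for *Mki67* and -0.091 to 0.15 for *Top2a* in kidney, and -0.079 to 0.44 for *Rrm2* in liver. *Mcm7* in heart also had -0.0017 with no count filter.

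Labels give all groups the same replicate numbers, and at each age the 3 tissues also have the same library numbers. The authors collected all 3 organs from their mice, so libraries of different organs may come from the same animal. The labels do not state this, and the numbers were not taken as pairs. The deviations of same-numbered libraries from their group means did not all correlate above 0.1, which cannot exclude shared animals. Between ages of a tissue r ran from -0.32 to 0.24. Between tissues of the same age it was positive in all 12 pairs of heart with kidney (0.031 to 0.20) and of kidney with liver (0.050 to 0.28), and from -0.042 to 0.14 for heart with liver. With the replicate block, which across tissues was age and number together, 35 members instead of 37 differed between liver and heart. Apart from this and the loss of *Mcm3*, the count of called members was the same in each comparison. The fits for single interaction changes were added after seeing the data.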
